A study of Mus musculus with 18 samples.

Results

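Zbp1, Ripk3, Mlkl and Gsdmd encode the sensor, the kinase and the membrane-breaking proteins of necroptosis and pyroptosis, the lytic forms of programmed cell death. The genes were taken by name from a table of 16248 genes measured in vessel-lining endothelial cells (ECs), and all 4 were listed. ZBP1 binds left-handed nucleic acids and passes the signal to the kinase RIPK3, which phosphorylates the pseudokinase MLKL. Phosphorylated MLKL then assembles at the plasma membrane and breaks it. GSDMD is cut by inflammatory caspases, and its freed amino-terminal part forms pores in the membrane. Zbp1, Mlkl and Gsdmd are known as interferon-responsive genes, and the death of a cell by either route depends on cleavage and phosphorylation that an RNA level does not show.

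The study asked how ECs of breast tissue respond to cGAMP, an agonist that switches on the receptor STING. Its methods name the compound as 3′3′-cGAMP, which tumours received by injection into the tumour. Bulk RNA-seq was carried out on ECs from 6 groups of female FVB mice with 3 libraries each (18 libraries), all collected 3 hours after injection. Normal ECs were taken from wild type mammary fat pads after PBS or cGAMP, and the age of these mice was not given. MMTV-PyMT tumour ECs came from spontaneous breast tumours of transgenic mice treated with PBS or cGAMP from 9 weeks of age, in which a promoter active in mammary epithelium drives a viral oncogene. Implanted tumour ECs came from tumours grown out of cultured MMTV-PyMT tumour cells in the fat pad of wild type mice that were 8 to 9 weeks old at implantation, again under PBS or cGAMP. The implanted groups therefore had a wild type host and the MMTV-PyMT groups a host that carried the oncogene itself.

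Levels are given as FPKM, fragments per kilobase of gene length with a scaling for library size, so that levels of different genes can be set beside each other. Tests used limma on log2(FPKM + 1) over 13983 genes, and a gene passed when its adjusted p was under 0.05. Recovered reads numbered 9114650 to 12112396 per library, and the reads on a member ran from 33 to 2685, both for Zbp1. All 8 endothelial markers were listed, with a summed level of 715 to 1731 FPKM per library. Markers of other cells were present too. The 6 epithelial markers summed to 245 to 905 FPKM and were highest in MMTV-PyMT PBS ECs. The 4 fibroblast markers summed to 182 to 476 FPKM in implanted ECs against 34.7 to 134 FPKM in the other groups, mostly through Col1a1. Its mean was 186 FPKM in implanted, 90.5 FPKM in MMTV-PyMT and 33.8 FPKM in normal PBS ECs. Of the PBS groups, implanted ECs had the lowest Dcn (2.25, 6.84 and 11.2 FPKM in the same order) and Lum (2.21, 9.84 and 6.28 FPKM). Pdgfra stood at 2.41, 3.31 and 2.33 FPKM. The 4 mural cell markers summed to 638 to 881 FPKM in normal ECs and to 151 to 392 FPKM in tumour ECs, and 0 of 3 adipocyte markers were listed. The 8 listed leukocyte markers, out of 10, summed to 19.5 to 73.3 FPKM in 17 libraries and to 239 FPKM in implanted cGAMP replicate 2. Ptprc, which encodes the CD45 used to remove leukocytes in the sort, reached 9.73 FPKM in a normal cGAMP library and 9.24 FPKM in an implanted cGAMP library. The scaling also differed between groups. Recovered reads per unit of the FPKM scaling were 0.860 to 1.03 in the 5 other groups and 1.20 to 1.35 in implanted cGAMP ECs. Scaling by total reads in its place moved the median log2 change of all genes under cGAMP from -0.01 to -0.25 in implanted ECs and from -0.04 to -0.14 in MMTV-PyMT ECs. It moved the share of calls that were higher from 52.0% to 22.2% and from 61.9% to 27.7%, and left this share at 43.0% in normal ECs (43.1% before).

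All 4 genes are protein-coding, and their positions are given on GRCm38 (mm10) with GENCODE M21. Zbp1 (ENSMUSG00000027514.14) lies on chromosome 2 from 173206612 to 173218923 on the minus strand. Ripk3 (ENSMUSG00000022221.14) occupies chromosome 14 from 55784995 to 55788865, also on the minus strand. The minus strand of chromosome 8 holds Mlkl (ENSMUSG00000012519.14) from 111311797 to 111338177. Gsdmd (ENSMUSG00000022575.5) is on the plus strand of chromosome 15 from 75862327 to 75867408. Exons of the 4 genes shared 0 bases with exons of any other annotated gene.

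Because the RNA of Ripk3 and Mlkl rose in all 3 tissues, the sequence upstream of each is shown as it stands in RefSeq's promoter windows (GRCm38.p6), 5′ to 3′ on the gene's own strand. The windows of 300 bases hold 250 bases before the RefSeq start and 50 after it, and Ripk3 and Mlkl were the members with an entry. The first sequence covers chr14:55788866-55789107 and the second chr8:111338206-111338455, both on the minus strand.
Ripk3: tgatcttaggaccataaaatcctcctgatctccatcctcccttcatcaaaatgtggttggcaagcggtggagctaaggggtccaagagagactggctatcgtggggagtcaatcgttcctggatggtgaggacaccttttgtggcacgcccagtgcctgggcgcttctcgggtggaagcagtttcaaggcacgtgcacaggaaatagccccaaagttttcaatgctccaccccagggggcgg
Mlkl: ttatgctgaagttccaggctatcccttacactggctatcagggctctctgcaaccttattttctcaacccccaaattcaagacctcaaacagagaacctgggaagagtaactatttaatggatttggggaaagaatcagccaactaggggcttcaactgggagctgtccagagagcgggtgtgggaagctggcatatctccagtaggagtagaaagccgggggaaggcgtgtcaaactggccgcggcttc

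The interferon-stimulated response element, searched as GAAANNGAAA on both strands, occurred in 3.44% of 32851 windows and in neither of these. Nor did either window hold the gamma-activated sequence TTCNNNGAA (8.30% of windows) or the kappa-B motif (8.46%). A shortened core of the response element, GAAANNGAA, was added after the data were seen, overlaps the full element, and occurred in 8.56% of windows. The Ripk3 window held 1 such core, 14 bases after the RefSeq start, and the Mlkl window held 0. The core stands in capitals in the stretch chr14:55788824-55788853 on the minus strand.
Ripk3: cctcttatttGAAAGGGAAgttgtgaagtc

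Zbp1, the sensor, had the widest range of the 4 genes. In normal ECs its level was 1.32, 0.956 and 0.863 FPKM under PBS and 6.53, 3.40 and 2.87 FPKM under cGAMP. MMTV-PyMT tumour ECs held 1.20, 3.01 and 1.49 FPKM of Zbp1 under PBS and 4.37, 6.23 and 6.97 FPKM under cGAMP. Implanted tumour ECs held 23.8, 12.6 and 15.5 FPKM under PBS and 83.1, 73.2 and 75.2 FPKM under cGAMP. The libraries of the implanted tumours were thus all above those of the other tissues, and every cGAMP library lay above every PBS library of its own tissue. Implanted ECs under PBS, with a mean of 17.3 ± 5.84 FPKM (SD, n = 3), stood above MMTV-PyMT ECs under cGAMP at 5.86 ± 1.34 FPKM, with no overlap. From the lowest to the highest group mean the level differed 73.8-fold. Zbp1 ranked above 24.2% of the listed genes in normal PBS ECs and above 96.6% in implanted cGAMP ECs.

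Ripk3, the kinase that joins the sensor to its effector, was the most even of the necroptosis genes at rest. Under PBS the level in normal ECs was 8.65, 9.86 and 8.78 FPKM, and under cGAMP it was 33.8, 39.9 and 26.1 FPKM. Levels in MMTV-PyMT tumour ECs were 6.71, 5.52 and 4.46 FPKM under PBS and 15.9, 23.0 and 17.7 FPKM under cGAMP. For implanted tumour ECs they were 13.2, 20.2 and 13.5 FPKM under PBS and 95.5, 54.9 and 56.9 FPKM under cGAMP. Normal ECs given cGAMP were second in order, above both MMTV-PyMT groups and implanted ECs under PBS. The ranges of MMTV-PyMT cGAMP and implanted PBS overlapped, and all other neighbours in the order of groups were separate.

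Mlkl, the gene of the necroptosis executioner, read 3.64, 4.06 and 4.81 FPKM in normal ECs under PBS and 16.5, 20.1 and 15.3 FPKM under cGAMP. In MMTV-PyMT tumour ECs the values were 5.40, 5.89 and 4.92 FPKM under PBS and 13.6, 19.5 and 15.3 FPKM under cGAMP. In implanted tumour ECs they were 15.1, 14.5 and 13.9 FPKM under PBS and 66.3, 54.6 and 56.3 FPKM under cGAMP. Implanted PBS ECs overlapped MMTV-PyMT cGAMP ECs and lay just below normal cGAMP ECs, without overlap. Implanted cGAMP ECs were separate from all other groups.

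Gsdmd, the gene of the pyroptosis pore protein, was 4.95, 5.64 and 5.47 FPKM in normal PBS libraries and 7.27, 5.91 and 6.81 FPKM in normal cGAMP libraries. The MMTV-PyMT tumours gave 2.57, 2.48 and 1.99 FPKM of Gsdmd under PBS and 3.14, 5.72 and 3.97 FPKM under cGAMP. Those of the implanted tumours were 7.20, 8.31 and 7.28 FPKM under PBS and 30.3, 22.6 and 21.3 FPKM under cGAMP. MMTV-PyMT PBS ECs were the lowest group, at 0.438 times the mean of normal PBS ECs, and the range of MMTV-PyMT cGAMP ECs overlapped that of normal PBS ECs. Implanted PBS ECs overlapped normal cGAMP ECs, and implanted cGAMP ECs lay above every other library.

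**Figure D1:**
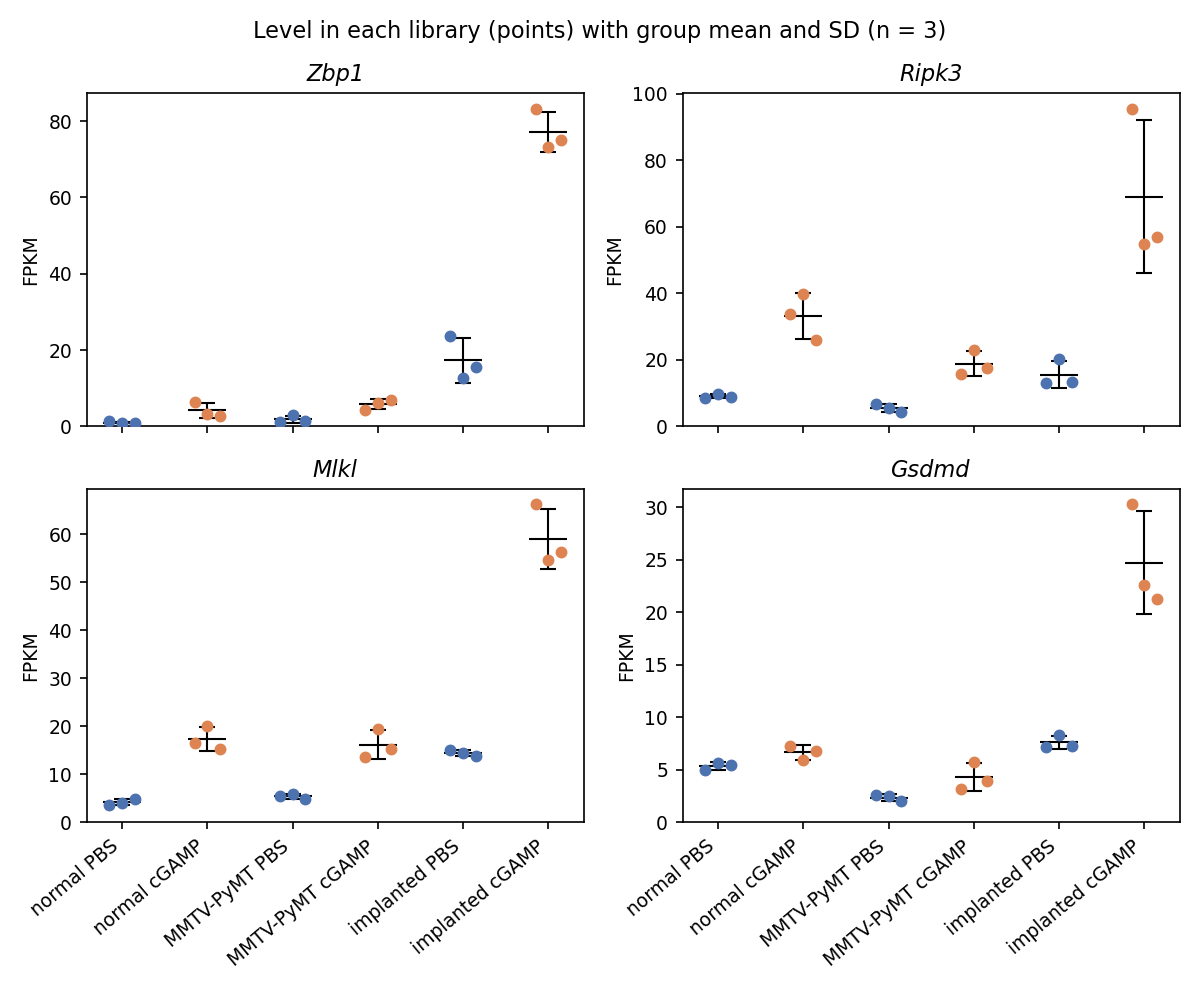
Level of Zbp1, Ripk3, Mlkl and Gsdmd in FPKM (vertical axes, linear from 0) in the 6 groups, with 1 point per library (blue PBS, orange cGAMP) and the group mean with its SD (n = 3). The implanted cGAMP libraries are the highest for each gene, at 73.2 to 83.1 FPKM for Zbp1 and 21.3 to 30.3 FPKM for Gsdmd.

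Set beside each other on the FPKM scale, the 4 genes stood in another order in each tissue. In normal PBS ECs the order from high to low was Ripk3 (9.09 FPKM), Gsdmd (5.36 FPKM), Mlkl (4.17 FPKM) and Zbp1 (1.05 FPKM), with no overlap between neighbours. In implanted PBS ECs Zbp1 (17.3 FPKM), Ripk3 (15.6 FPKM) and Mlkl (14.5 FPKM) overlapped with each other and Gsdmd (7.60 FPKM) lay below them. In implanted cGAMP ECs the means had the same order, and the range of Ripk3 (69.1 FPKM) overlapped those of Zbp1 (77.2 FPKM) and Mlkl (59.1 FPKM), which were separate from each other. Gsdmd (24.7 FPKM) again lay below them. In MMTV-PyMT PBS ECs Ripk3 (5.56 FPKM) and Mlkl (5.40 FPKM) overlapped, as did Gsdmd (2.35 FPKM) and Zbp1 (1.90 FPKM).

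The first question was whether cGAMP changed the 4 genes within each tissue. Zbp1, Ripk3 and Mlkl rose in normal, MMTV-PyMT and implanted ECs, and Gsdmd rose in MMTV-PyMT and implanted ECs. In normal ECs 3 of the 4 members passed and were higher, where 13.7% of all genes tested did. In MMTV-PyMT ECs all 4 were higher, against 7.42% of all genes, and in implanted ECs all 4 were higher, against 20.3% of all genes. The median log2 change over all genes was -0.04, -0.04 and -0.01 in the same order.

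In normal ECs the ratio of group means under cGAMP was 4.08 for Zbp1, 3.66 for Ripk3 and 4.14 for Mlkl. On the log2(FPKM + 1) scale, which understates the change of low genes, Zbp1 rose by 1.31 (SE 0.26, adjusted p = 0.00153). Ripk3 rose by 1.74 (SE 0.22, adjusted p = 2.51e-05) and Mlkl by 1.82 (SE 0.13, adjusted p = 5.89e-08). The value for Gsdmd was 0.27 (SE 0.15, 95% confidence interval -0.06 to 0.60, adjusted p = 0.204), with a ratio of means of 1.24. The 3 cGAMP libraries of Gsdmd all lay above the 3 PBS libraries, but the difference did not pass the test.

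MMTV-PyMT tumour ECs gave ratios of means of 3.08 for Zbp1, 3.39 for Ripk3, 2.99 for Mlkl and 1.82 for Gsdmd. The log2 change of Zbp1 was 1.27 (SE 0.26, adjusted p = 0.00473), that of Ripk3 1.60 (SE 0.22, adjusted p = 8.64e-05) and that of Mlkl 1.41 (SE 0.13, adjusted p = 8.36e-07). Gsdmd rose by 0.63 (SE 0.15, adjusted p = 0.0138). This last call was lost without MMTV-PyMT cGAMP replicate 2 (0.44, adjusted p = 0.0836), without MMTV-PyMT PBS replicate 3 (0.55, adjusted p = 0.0755) and when the fit held only those 2 groups (0.63, adjusted p = 0.0585). Among the MMTV-PyMT libraries, cGAMP replicate 2 had the highest endothelial marker sum (1048 FPKM) and the lowest epithelial sum (581 FPKM). PBS replicate 3 had the lowest endothelial sum (715 FPKM), and the part of these markers in the result was not tested.

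In implanted tumour ECs Zbp1 rose by 2.14 on the log2 scale (SE 0.26, adjusted p = 9.07e-06), a ratio of means of 4.46. Ripk3 rose by 2.06 (SE 0.22, adjusted p = 1.63e-06, ratio 4.43), Mlkl by 1.95 (SE 0.13, adjusted p = 7.57e-09, ratio 4.07) and Gsdmd by 1.57 (SE 0.15, adjusted p = 7.95e-07, ratio 3.25). Without implanted cGAMP replicate 2, the library with the high leukocyte marker sum, the changes were 2.17 for Zbp1, 2.20 for Ripk3, 2.0 for Mlkl and 1.62 for Gsdmd, and all 4 still passed. That library held the lowest of the 3 values for Zbp1, Ripk3 and Mlkl. Implanted cGAMP replicate 1 held the highest value for each of the 4 genes. It also had the highest endothelial marker sum (1731 FPKM) and the lowest epithelial sum (245 FPKM) of the 18 libraries. The part of these markers in the result was not tested. When libraries were scaled by total reads, the changes in implanted ECs were 1.82, 1.74, 1.64 and 1.26 for Zbp1, Ripk3, Mlkl and Gsdmd, beside the median of -0.25 for all genes.

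**Figure D2:**
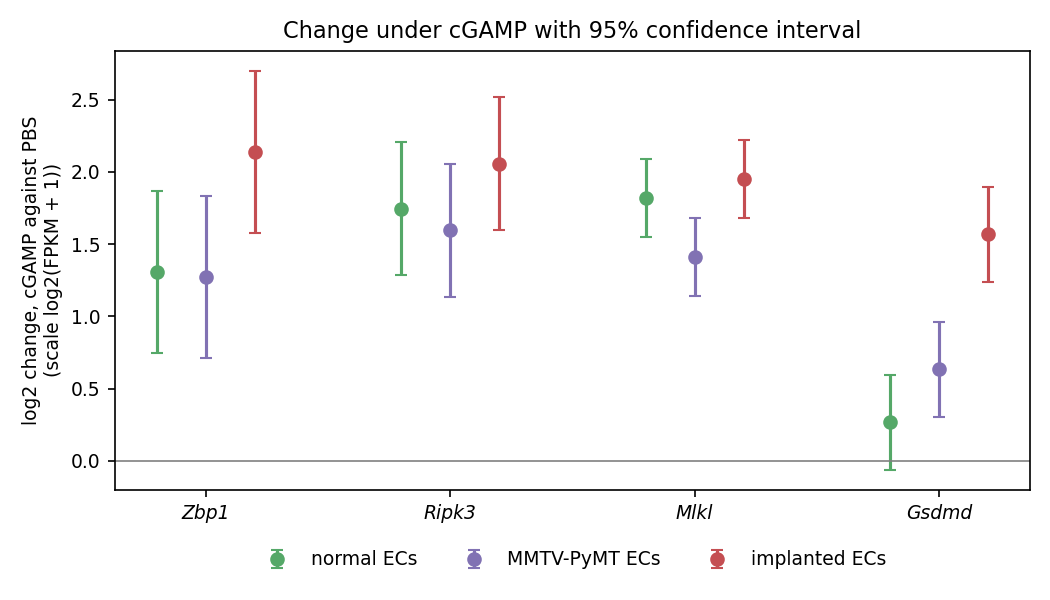
Change under cGAMP against PBS (vertical axis, log2 of FPKM + 1) of the 4 genes in normal (green), MMTV-PyMT (purple) and implanted (red) ECs, with points for the fitted change and bars for its 95% confidence interval. The interval of Gsdmd in normal ECs, -0.06 to 0.60, includes 0, and the other 11 lie above 0.

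A further question was whether the response to cGAMP differed between tissues, which was tested as a difference of changes. For Gsdmd it did. Its change was larger in implanted than in normal ECs by 1.30 (SE 0.22, 95% confidence interval 0.83 to 1.76, adjusted p = 0.000703). It exceeded that in MMTV-PyMT ECs by 0.93 (SE 0.22, interval 0.47 to 1.40, adjusted p = 0.0106), a call that was lost with voom on the recovered reads (0.86, adjusted p = 0.0732). Gsdmd was the 1 member of 4 that passed in either comparison, where 12.5% of all genes were higher in implanted minus normal and 7.34% in implanted minus MMTV-PyMT. These comparisons share the implanted libraries.

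For the 3 necroptosis genes the difference of changes did not pass. Between implanted and normal ECs it was 0.83 for Zbp1 (interval 0.04 to 1.62, adjusted p = 0.136), and it passed without normal cGAMP replicate 1 (1.12, adjusted p = 0.0328). That library had the highest Zbp1 level of its group and, at 73.3 FPKM, the highest leukocyte marker sum, whose part in the result was not tested. The Zbp1 difference was smaller with a pseudocount of 0.1 (0.34), quantile normalization (0.33), scaling by total reads (0.48) and voom (0.26). The difference for Ripk3 was 0.31 (interval -0.34 to 0.96, adjusted p = 0.525), with the opposite sign under quantile normalization (-0.16) and scaling by total reads (-0.01). That for Mlkl was 0.13 (interval -0.25 to 0.51, adjusted p = 0.666), and its sign turned under those scalings and 2 further alternatives.

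Between implanted and MMTV-PyMT ECs the difference of changes was 0.87 for Zbp1 (interval 0.07 to 1.66, adjusted p = 0.160), 0.46 for Ripk3 (interval -0.19 to 1.11, adjusted p = 0.396) and 0.54 for Mlkl (interval 0.16 to 0.92, adjusted p = 0.0677). The Mlkl difference passed without MMTV-PyMT cGAMP replicate 2 (0.68, adjusted p = 0.0190) and was 0.17 after quantile normalization (adjusted p = 0.576) and 0.34 with scaling by total reads. The Ripk3 difference was 0.067 and 0.26 under these scalings, and that of Zbp1 was 0.51 with quantile normalization, 0.55 with a pseudocount of 0.1 and 0.47 with voom. Between MMTV-PyMT and normal ECs 0 of 4 members passed in either direction, where 5.48% of all genes were higher and 2.90% lower. At an unadjusted p under 0.05, 1 member was lower there, namely Mlkl with a difference of -0.41 (adjusted p = 0.176), and Mlkl passed when libraries were scaled by total reads (-0.54, adjusted p = 0.0379). Gsdmd gave 0.37 (interval -0.10 to 0.83) in that comparison.

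The design also set the tissues against each other under the same injection. All 4 members were higher in implanted than in MMTV-PyMT ECs under PBS and 0 were lower, where 20.8% of all genes were higher and 24.6% lower. The log2 difference was 2.66 for Zbp1 (SE 0.26, adjusted p = 1.64e-06), 1.33 for Ripk3 (SE 0.22, adjusted p = 0.000158), 1.28 for Mlkl (SE 0.13, adjusted p = 1.80e-06) and 1.36 for Gsdmd (SE 0.15, adjusted p = 5.90e-06). As ratios of means these were 9.12, 2.80, 2.68 and 3.24. For each gene the 3 implanted libraries lay above the 3 MMTV-PyMT libraries. The epithelial marker sum was higher in the MMTV-PyMT PBS libraries (838 to 905 FPKM against 345 to 494 FPKM). The endothelial sum was higher in the implanted ones (1012 to 1284 FPKM against 715 to 872 FPKM), though mean Tek (22.4 against 33.5 FPKM) and Cldn5 (99.0 against 111 FPKM) were lower. The fibroblast sum was higher there too (182 to 212 FPKM against 83.3 to 134 FPKM). That was through Col1a1 (mean 186 against 90.5 FPKM), while the means of Pdgfra, Dcn and Lum were lower in implanted ECs. The part of these markers in the result was not tested. In bulk samples, fewer cells of a type and less RNA per cell cannot be told apart.

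All 4 were also higher in implanted than in normal ECs under PBS and 0 were lower, where 25.0% of all genes were higher and 23.6% lower. Zbp1 led with a log2 difference of 3.12 (SE 0.26, adjusted p = 1.15e-07) and a ratio of means of 16.5, followed by Mlkl at 1.59 (SE 0.13, adjusted p = 6.61e-08, ratio 3.48). The difference for Ripk3 was 0.69 (SE 0.22, adjusted p = 0.0146), and that for Gsdmd was 0.44 (SE 0.15, adjusted p = 0.0288). The call for Ripk3 was lost without implanted PBS replicate 2 (0.51, adjusted p = 0.0841). The call for Gsdmd was lost when libraries were scaled by total reads (0.28, adjusted p = 0.111), and without normal PBS replicate 1 (0.39, adjusted p = 0.0904), normal PBS replicate 3 (0.45, adjusted p = 0.0565) or implanted PBS replicate 2 (0.38, adjusted p = 0.0979). The mural marker sum was 177 to 217 FPKM in implanted PBS libraries against 776 to 881 FPKM in normal PBS libraries, and its part in the result was not tested.

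MMTV-PyMT ECs differed from normal ECs in both directions under PBS. Of the members, 1 was higher (29.8% of all genes) and 2 were lower (26.6% of all genes). Gsdmd was lower, with a log2 difference of -0.93 (SE 0.15, adjusted p = 0.000107), and its 3 MMTV-PyMT libraries lay below the 3 normal libraries. In the MMTV-PyMT PBS libraries the endothelial marker sum was 715 to 872 FPKM against 1003 to 1129 FPKM in normal PBS libraries, the mural sum 194 to 270 FPKM against 776 to 881 FPKM, and the epithelial sum 838 to 905 FPKM against 313 to 395 FPKM. The part of these markers in the result was not tested. Ripk3 was lower by the test at -0.63 (SE 0.22, adjusted p = 0.0206), a call lost without normal PBS replicate 2 (-0.58, adjusted p = 0.0643) or MMTV-PyMT PBS replicate 3 (-0.51, adjusted p = 0.0920). Mlkl was higher at 0.31 (SE 0.13, adjusted p = 0.0482), close to the threshold, and kept that call under 12 of 26 alternatives. It was lost without normal PBS replicates 1 or 2, normal cGAMP replicate 1, any implanted PBS library, implanted cGAMP replicate 3, MMTV-PyMT PBS replicates 1 or 2, or MMTV-PyMT cGAMP replicate 3, with the lowest value, 0.24 (adjusted p = 0.178), without normal PBS replicate 1. Zbp1 gave 0.46 (interval -0.10 to 1.02, adjusted p = 0.151).

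Under cGAMP all 4 members were higher in implanted than in MMTV-PyMT ECs (26.0% of all genes were) and higher in implanted than in normal ECs (31.3% of all genes were). Against MMTV-PyMT ECs the log2 difference was 3.53 for Zbp1, 1.79 for Ripk3, 1.82 for Mlkl and 2.30 for Gsdmd, with adjusted p between 2.28e-08 and 6.69e-06. Compared with normal ECs it was 3.95 for Zbp1, 1.01 for Ripk3, 1.72 for Mlkl and 1.73 for Gsdmd, with adjusted p between 6.36e-09 and 0.000933. Scaled by total reads, the Ripk3 difference from normal ECs was 0.52 (adjusted p = 0.0281), beside a median of -0.33 for all genes, and the share of calls that were higher moved from 55.7% to 21.9% in this comparison. The fibroblast marker sum was again higher in implanted than in normal cGAMP libraries (198 to 476 FPKM against 34.7 to 63.2 FPKM), and its part was not tested. Most of that sum was Col1a1 (mean 339 against 30.9 FPKM). Pdgfra was higher in implanted ECs too (2.91 against 1.65 FPKM), while Dcn (5.53 against 9.29 FPKM) and Lum (4.15 against 4.35 FPKM) were lower.

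MMTV-PyMT ECs under cGAMP held less Ripk3 (log2 difference -0.78, SE 0.22, adjusted p = 0.00715) and less Gsdmd (-0.56, SE 0.15, adjusted p = 0.00675) than normal ECs under cGAMP. These were 2 of 4 members lower, where 22.1% of all genes were. The values for Zbp1 (0.42, interval -0.14 to 0.99, adjusted p = 0.193) and Mlkl (-0.10, interval -0.37 to 0.17, adjusted p = 0.538) did not pass. Zbp1 passed without normal cGAMP replicate 1 (0.71, adjusted p = 0.0331).

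**Figure D3:**
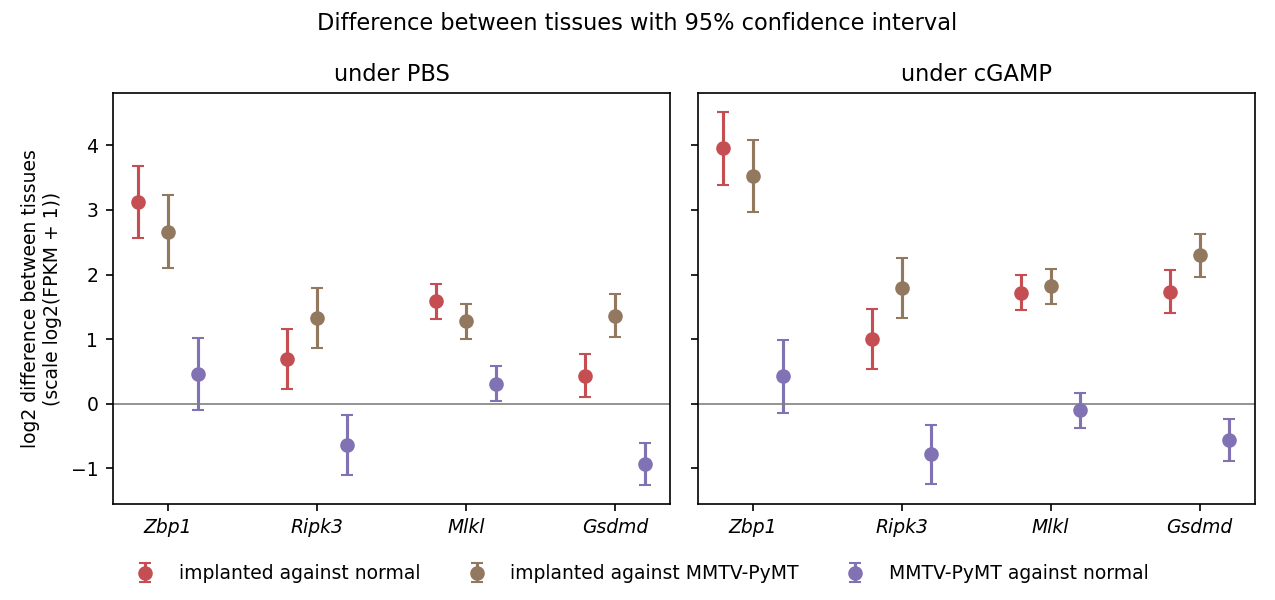
Difference between tissues (vertical axis, log2 of FPKM + 1) of the 4 genes under PBS (left) and under cGAMP (right), with points for the fitted difference and bars for its 95% confidence interval. Zbp1 shows the widest gap between implanted and normal ECs, 3.12 under PBS and 3.95 under cGAMP, while the MMTV-PyMT minus normal values of Gsdmd, -0.93 and -0.56, lie below 0.

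The genes whose pattern over the 18 libraries was most like that of each member were named by Pearson's r of log2(FPKM + 1), as a description. The 18 points fall into 6 groups and share a common scaling, so r mainly reflects the group means. Zbp1 was most like H2-T10 (r = 0.988), Oas3 (0.985), Oas1a (0.982), H2-T22 (0.978) and Psme2 (0.976), which are antiviral oligoadenylate synthetase genes, class Ib MHC genes and a proteasome activator gene. Ripk3 was most like Snx10 (0.979), Pnp (0.976), Olfr56 (0.969), Pfkfb3 (0.969) and Socs1 (0.969), the last a feedback inhibitor of cytokine signalling. Olfr56 shares 111 exon bases with the interferon-inducible gene Ifi47, so its level is uncertain, as are those of the H2 and Oas genes with near-identical relatives. Mlkl was most like Upp1 (0.990), Lgals9 (0.987), Cxcl11 (0.984), Rnf19b (0.984) and Spsb1 (0.980). Among the genes most like Gsdmd were H2-M3 (0.983), Wars (0.979), Atp8b2 (0.978) and Sema3a (0.977). Among the members r was lowest for Zbp1 with Ripk3 (0.767) and highest for Ripk3 with Mlkl (0.931).

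Other genes of the pathways were taken from 3 lists, of necroptosis upstream components and regulators (22 genes), inflammasome and pyroptosis (18 genes) and ESCRT-dependent membrane repair (11 genes). Of the 51 genes, 45 were listed and passed the filter on low values, and Nlrc4, Nlrp1b, Mefv, Gsdma, Gsdmc and Il18 were not analysed here. Across normal, MMTV-PyMT and implanted tissue, those that rose under cGAMP numbered 17, 12 and 25 of 45, and those that fell numbered 3, 0 and 2. As shares of the 45 these were 37.8%, 26.7% and 55.6% that rose, where 13.7%, 7.42% and 20.3% of all genes did, and 6.67%, 0% and 4.44% that fell, where 18.2%, 4.57% and 18.8% of all genes did. The median log2 change of the 45 was 0.14, 0.08 and 0.55, against -0.04, -0.04 and -0.01 for all genes. With scaling by total reads the counts in implanted ECs were 22 higher and 13 lower, and those in MMTV-PyMT ECs 13 higher and 5 lower. A set of 12 list genes (26.7% of the 45) rose in each of the 3 tissues, where 4.51% of all genes did. Nlrp3 and Il1a, both among the 45, passed the filter through cGAMP libraries of the tumours alone. Ikbke reached the minimum in 5 libraries, among them all of implanted cGAMP (1.31 to 2.44 FPKM), and would not have passed the filter without these. A rise of Ikbke in implanted ECs was therefore favoured by the filter.

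Upstream of Ripk3 and Mlkl, 12, 10 and 14 of 22 genes rose in normal, MMTV-PyMT and implanted tissue (54.5%, 45.5% and 63.6%, against 13.7%, 7.42% and 20.3% of all genes). The 22 include Ikbke, whose rise in implanted ECs the filter favoured. Adar, whose product edits double-stranded RNA and restrains ZBP1, rose by 1.18, 1.56 and 1.90 on the log2 scale in the same order. Tlr3, a receptor for double-stranded RNA that can signal to RIPK3, rose by 1.40, 1.85 and 2.7. Tnfaip3, the ubiquitin-editing enzyme A20, rose by 1.98, 2.17 and 2.01, and Birc3, a ubiquitin ligase of the TNF receptor complex, by 1.33, 1.28 and 1.81. Of other ubiquitin regulators of that complex, Birc2 and Rnf31 also rose in all 3 tissues. The mean of Rnf31 went from 7.12 to 14.4 FPKM in normal, 3.87 to 17.0 FPKM in MMTV-PyMT and 9.75 to 42.9 FPKM in implanted ECs. Otulin (0.13, -0.17 and 0.06) and Sharpin (0.15, -0.06 and -0.14) did not pass in any tissue. Casp8, which cleaves RIPK1 and RIPK3, rose by 0.43, 0.60 and 1.65, and Cflar, its regulatory partner cFLIP, by 0.47, 0.64 and 1.54. The increase in implanted ECs was larger than in normal ECs for Casp8 by 1.22 (adjusted p = 0.00106) and for Cflar by 1.08 (adjusted p = 0.00187), and larger than in MMTV-PyMT ECs by 1.05 (adjusted p = 0.00488) and 0.90 (adjusted p = 0.00933).

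Ripk1, the kinase that precedes RIPK3 in the TNF pathway, rose by 0.70, 0.74 and 0.71. The genes of this list that fell were Tradd (-0.48, adjusted p = 0.0466) and Ticam1 (-0.45, adjusted p = 0.0398), both adaptors, in normal ECs and the adaptor gene Fadd (-0.44, adjusted p = 0.0117) in implanted ECs. The difference of changes between implanted and normal ECs for Ripk1 was 0.01 (adjusted p = 0.976).

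Around Gsdmd, 3 of 12 inflammasome and pyroptosis genes rose in normal ECs, 1 did in MMTV-PyMT tumours and 10 did in implanted tumours (25.0%, 8.33% and 83.3%, against 13.7%, 7.42% and 20.3% of all genes). The share in MMTV-PyMT tumours was thus near that of all genes. Casp4, the caspase of the non-canonical inflammasome that cuts GSDMD, rose by 1.59, 1.82 and 2.34 in the order above. Casp1, the caspase of the canonical inflammasome, gave 0.13 and 0.48 in normal and MMTV-PyMT ECs, which did not pass, and rose by 1.62 in implanted ECs. Its change in implanted ECs exceeded that in normal ECs by 1.49 (adjusted p = 0.000332) and that in MMTV-PyMT ECs by 1.14 (adjusted p = 0.00401), as was found for Gsdmd. Ninj1, whose product ruptures the membrane after pores have formed, rose by 1.24 in implanted ECs and its change exceeded that in normal ECs by 1.0 (adjusted p = 0.00325). Pycard, the adaptor ASC, rose by 0.96 in normal and 1.22 in implanted ECs and gave -0.05 in MMTV-PyMT ECs (adjusted p = 0.876). Nlrp3 passed the filter on low values through the implanted cGAMP libraries alone and so had to differ, although it is among the 10 above. Il1a likewise passed through cGAMP libraries of the tumours alone, with highest values of 3.61 FPKM in implanted and 1.18 FPKM in MMTV-PyMT ECs. In the other groups Il1a did not exceed 0.67 FPKM, so a rise of this gene under cGAMP was favoured by the filter. Casp1, Nlrp3, Aim2 and Il1b are also expressed by leukocytes, whose marker sum was highest in an implanted cGAMP library. In implanted cGAMP libraries Nlrp3 ran from 1.22 to 7.15 FPKM, Il1a from 0.350 to 3.61 FPKM and Il1b from 4.25 to 28.2 FPKM. Without the implanted cGAMP library with the highest leukocyte sum, 23 of the 45 list genes rose and 2 fell in implanted ECs. The 12 genes of this list were not counted alone in that fit.

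In the list of membrane repair genes, whose products pinch off damaged membrane, 2, 1 and 1 of 11 rose, in the order of tissues above (18.2%, 9.09% and 9.09%). These shares were near or below the 13.7%, 7.42% and 20.3% of all genes that rose. Chmp4b, the main filament subunit of ESCRT-III, rose by 1.09, 0.74 and 1.31. Vps4b rose and Pdcd6ip fell in normal ECs, and Vps4a fell by 0.33 in implanted ECs (adjusted p = 0.0165). The median log2 change of the list was -0.01, -0.11 and 0.07.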

How the data were processed

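Digested tissue was enriched with CD31 beads, and flow cytometry then took live cells positive for CD31 and negative for CD45. According to the study's methods and processing notes, directional libraries were aligned with STAR 2.7 (mm10), HTSeq-count gave the gene counts, and use of strand was not stated. The authors deposited 1 table of FPKM, and how FPKM were made was not given in the sources used here. Of its 18 columns, 12 name tumour and treatment. The other 6 name the treatment alone and were assigned to normal tissue by elimination. No column lacked a sample (0).

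Whole reads were recovered from the steps of the FPKM values for 15772 of 16012 genes with a GENCODE M21 length (98.5%, within 0.05 read or 1e-05 of the value). The FPKM denominators followed median-of-ratios size factors of these reads, with a largest deviation of 0.293%. Reads carry no molecular identifiers, so their number covers counting error only. Replicate pairs (18) had a chi-square per gene of 4.09 to 31.6, so none was a library listed more than once. A legend gives 3 mice per group from 3 experiments, and which library came from which was not stated, so p-values measure the spread between these libraries.

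Genes with FPKM of at least 1 in at least 3 libraries were tested (13983, with 2265 below). For log2(FPKM + 1), limma 3.58.1 in R 4.3.3 estimated a mean for each of the 6 groups from the 18 libraries and moderated the variances with a trend (2-sided tests). The script was tested on simulated data, and p-values had Benjamini-Hochberg adjustment over all tested genes. Same-numbered libraries did not deviate together (correlations -0.345 to 0.294, median -0.01). Alternatives were another pseudocount, other filters, scalings and weights, fewer groups, a replicate block, a threshold of 0.01 and leaving out each library. The text names the 4 members, genes of the pathway lists and the 5 genes most like each member, apart from items not reported here. The members and lists were chosen with earlier results of these data known.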

Additional observations from a re-analysis of the deposited data

Results flagged for a closer look

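Gsdmd is given here because its response to cGAMP differed between tissues by a direct test of the difference of changes. Its log2 change was larger in implanted than in normal ECs by 1.30 (limma, adjusted p = 0.000703), and larger in implanted than in MMTV-PyMT ECs by 0.93 (adjusted p = 0.0106). The change itself was 0.27 for normal ECs, 0.63 for MMTV-PyMT ECs and 1.57 for implanted ECs, and the cGAMP libraries lay above the PBS libraries in all 3 tissues. The 2 differences share the implanted libraries. Without implanted cGAMP replicate 2 they were 1.35 (adjusted p = 0.00101) and 0.99 (adjusted p = 0.0126). Over all alternatives the difference between implanted and normal ECs ranged from 0.98 to 1.40 and that between implanted and MMTV-PyMT ECs from 0.71 to 1.12. No group had enough libraries for a test of single outlying values.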

How the results depend on the processing

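Of 48 results of the 4 members (12 comparisons), 34 kept their direction and their side of the threshold under all 26 alternatives, among them 11 of 12 changes under cGAMP. The exceptions follow, and the cause of each was not tested. The cGAMP change of Gsdmd in MMTV-PyMT ECs missed the threshold when only its groups were fitted (0.63), and ranged from 0.44 to 0.79 without single libraries. For the difference of changes between implanted and MMTV-PyMT ECs, Mlkl passed with a floor of 5 on mean FPKM (0.54) and ranged from 0.43 to 0.68 without single libraries, and Gsdmd missed with voom (0.86). Between implanted and normal ECs the sign turned for Ripk3 under quantile normalization (-0.16) and scaling by total reads (-0.00612), and for Mlkl under a pseudocount of 0.1 (-0.011), quantile normalization (-0.36), scaling by total reads (-0.20) and voom (-0.032), and Zbp1 ranged from 0.64 to 1.12 without single libraries. Between MMTV-PyMT and normal ECs Zbp1 ranged from -0.23 to 0.25, and Mlkl passed with scaling by total reads (-0.54). Under PBS, implanted minus normal, Ripk3 ranged from 0.51 to 0.80 and Gsdmd from 0.38 to 0.47, and Gsdmd missed with scaling by total reads (0.28). For MMTV-PyMT minus normal under PBS, Ripk3 ranged from -0.76 to -0.51 and Mlkl from 0.24 to 0.40, and Mlkl missed with no filter (0.31), quantile normalization (0.28) and voom (0.38). Under cGAMP Zbp1 ranged from 0.23 to 0.71 and Mlkl from -0.24 to 0.011 in that comparison. With the replicate number as a block, 47 of 48 member results were kept and Mlkl missed for MMTV-PyMT minus normal under PBS (0.31). The numbers did not pair the libraries, and 4 of 18 correlated best with their own number. Pathway genes that fell under cGAMP numbered 0 to 4 (normal) and 1 to 2 (implanted) without single libraries. They numbered 1 in normal and 1 in implanted ECs when only those groups were fitted, 0 and 0 at an adjusted p under 0.01, 1 in implanted ECs with the floor of 5 on mean FPKM, and 7 there with quantile normalization. Scaling by total reads gave 5 for MMTV-PyMT ECs and 13 for implanted ECs. Depth limits the low values, since the lowest library held 33 reads of Zbp1 and 60 of Gsdmd.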

Other observations

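Under PBS, the shares of pathway genes called between MMTV-PyMT and normal ECs were near those of all genes. Of 45 genes, 13 (28.9%) were higher and 10 (22.2%) lower, where 29.8% and 26.6% of all genes were. Between implanted and MMTV-PyMT ECs 12 (26.7%) were higher and 7 (15.6%) lower, where 20.8% and 24.6% of all genes were. Between implanted and normal ECs 15 (33.3%) were higher and 4 (8.89%) lower, where 25.0% and 23.6% of all genes were. With scaling by total reads the counts against normal ECs were 11 higher and 11 lower, and those against MMTV-PyMT ECs were 9 and 12. Il1b, a cytokine released through GSDMD pores, was higher in implanted ECs by 1.95 against normal and by 1.61 against MMTV-PyMT ECs. Leukocytes also express Il1b, and the leukocyte marker sum was 29.8 to 68.2 FPKM in implanted PBS, 29.7 to 65.3 FPKM in normal PBS and 19.5 to 29.2 FPKM in MMTV-PyMT PBS libraries. The largest marker was Lyz2, with a mean of 33.3 FPKM in implanted and 24.7 FPKM in normal PBS ECs. Mean Csf1r, Adgre1, Cd68 and Tyrobp were also higher in implanted than in normal PBS ECs. Ptprc (0.808 against 4.07 FPKM), Cd3e (0.856 against 3.64 FPKM) and Cd79a (0.365 against 3.38 FPKM) were lower there. Casp4 was lower in MMTV-PyMT than in normal ECs by the test (-0.77), the direction found for Gsdmd, and Rnf31, the ligase subunit HOIP, was lower too (-0.74). Chmp4c was higher in MMTV-PyMT than in normal ECs by 1.25, and 6 of 11 membrane repair genes (54.5%) were higher there and 0 lower. Epithelial markers were highest in MMTV-PyMT ECs. The part of the leukocyte and epithelial markers in these values was not tested.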
